A study of Rattus norvegicus with 9 samples.

Results

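Layer markers of the cerebral cortex were followed in the frontal cortex of adult rats. They were 9 genes taken by name from the 37209 genes of a count table, 5 of them markers of the upper layers (Cux1, Cux2, Rasgrf2, Lamp5 and Rorb) and 4 of them markers of layer 5 (Fezf2, Bcl11b, Etv1 and Rbp4). All 9 genes had a row in the table and passed the filter on low counts, as did 16837 genes in all. They were taken by gene name, not by a threshold on these values, although the list was drawn up with earlier results of these data known.

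The samples were total RNA from the frontal cortex of 9 male Wistar rats aged 14 weeks, with 3 rats per group. Control rats (A1, A2 and A6) had stayed with their mothers undisturbed up to weaning at postnatal day (PND) 21. MS rats (B3, B4 and B6) had undergone maternal separation, in which dam and pups were parted for 4 h a day between PND 1 and PND 21. MS+EA rats (C3, C10 and C16) had undergone the same separation and later electroacupuncture (EA) at the points GV20 and GV29 under isoflurane, every other day between PND 61 and PND 81, with a current of 2 mA at 2 Hz for 15 min. By the study's methods, Control and MS rats were anesthetized too but received no EA. No rats with sham EA were among the sequenced groups, so that EA cannot be told apart from the procedure around it. No sequenced group received needling without current, so these cannot be told apart either. The rats were different animals, and the labels do not say whether any of them shared a litter.

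Excitatory neurons of the neocortex lie in layers that differ in their targets. Upper layer neurons mostly send their axons to other cortical areas, and many neurons of layer 5 project out of the cortex to the striatum, brainstem and spinal cord. Fezf2 and Bcl11b act in one pathway, in which Fezf2 specifies the neurons with subcortical targets during development and Bcl11b, downstream of it, guides their axons. Cux1 and Cux2 shape the dendrites and spines of upper layer neurons. In RNA from whole tissue, fewer cells of a type and less RNA per cell cannot be told apart.

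The total was 16153292 to 19007907 counts in Control rats, 16106381 to 17243320 in MS rats and 12479905 to 14913736 in MS+EA rats, so every MS+EA library was smaller than every other library. Levels are given in CPM, counts scaled to the size of the library, after TMM, a correction for differences in library composition. Values of single rats are listed with Control first, then MS, then MS+EA, and within a group in the order in which the rats are named above. Slc17a7, the vesicular glutamate transporter that defines cortical excitatory neurons, was at 1225 to 1635 CPM over the 9 rats. The striatal markers Isl1 and Six3 had at most 3 counts in every rat, while Drd1, the dopamine receptor of the direct striatal pathway that is also made in cortex, was at 10.4 to 20.1 CPM. Groups were compared by edgeR's quasi-likelihood F test with Benjamini-Hochberg adjustment over the 16837 genes, and a gene was called at an adjusted p under 0.05 together with a fold change above 1.5, the thresholds of the study.

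None of the 9 layer markers was called in any of the comparisons. The comparison of MS with Control rats asks what separation left in the adult cortex, and it called 0.0238% of all genes. That of MS+EA with MS rats asks what EA added, and it called 0.0178%. That of MS+EA with Control rats called 1.37%. Without the fold change threshold these shares were 0.0238%, 0.0178% and 5.40%, and 1 of the 9 genes, Fezf2 in MS+EA against Control rats, passed. At an unadjusted p under 0.05 the markers numbered 1 of 9 in MS against Control rats (Rbp4), 3 of 9 in MS+EA against MS rats (Lamp5, Fezf2 and Bcl11b) and 1 of 9 in MS+EA against Control rats (Fezf2), where the shares of all genes were 10.6%, 12.4% and 22.5%. DESeq2 and limma-trend also called 0 of the 9 in each comparison.

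**Figure D1:**
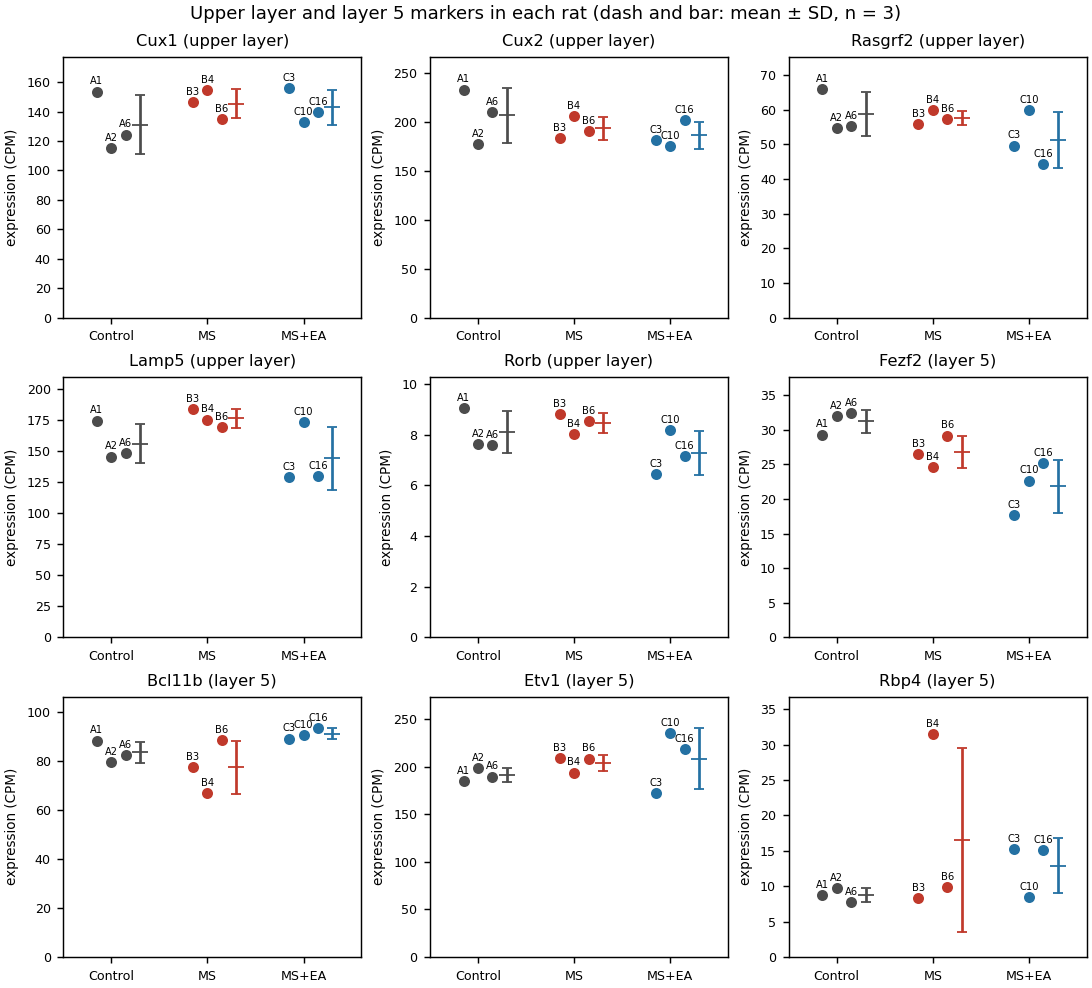
Level of each of the 9 layer markers (vertical axes, CPM from 0) in each rat of the Control, MS and MS+EA groups, with the mean and SD of the 3 rats beside them. Fezf2 in the MS+EA rats lay at 17.6 to 25.2 CPM, under every Control rat, and Rbp4 stood at 31.5 CPM in MS rat B4 against 8.28 and 9.86 CPM in the other MS rats.

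Fezf2, the zinc finger transcription factor that specifies corticospinal and other subcerebral neurons of layer 5, was lowest in the MS+EA rats. Its promoter, the 250 bases before the RefSeq start on assembly GRCr8 (chr15:15203943-15204192, plus strand), is shown since Fezf2 was the one marker to pass the adjusted p. Capitals mark the match to the GC box GGGCGG, which starts 121 bases before the start. The motif, read on both strands, is found in 30.5% of the 33469 RefSeq promoter windows of this length, and 62.8% of the bases of the Fezf2 window are G or C against a median of 51.2%.
Fezf2: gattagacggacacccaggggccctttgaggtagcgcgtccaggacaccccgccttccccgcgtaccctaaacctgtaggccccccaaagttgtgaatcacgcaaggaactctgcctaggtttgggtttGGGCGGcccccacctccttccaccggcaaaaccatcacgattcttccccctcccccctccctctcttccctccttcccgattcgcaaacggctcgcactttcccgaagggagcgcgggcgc

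Fezf2 was at 29.3, 32.0 and 32.4 CPM in Control rats, at 26.5, 24.6 and 29.2 CPM in MS rats, and at 17.6, 22.6 and 25.2 CPM in MS+EA rats. The mean was 31.2 ± 1.66 CPM (SD, n = 3) in Control, 26.8 ± 2.30 CPM in MS and 21.8 ± 3.86 CPM in MS+EA rats. All MS+EA rats lay under all Control rats, C16 lay between the lowest and the middle MS rat, and the highest MS rat was just under the lowest Control rat. In MS+EA against Control rats the log2 fold change was -0.52 ± 0.13 (SE; 95% interval -0.79 to -0.25; edgeR adjusted p = 0.0363), or 1.43-fold lower, which is short of 1.5-fold. By p this difference ranked 592 of 16837 genes, and the genes lower in this comparison at an adjusted p under 0.05 made up 2.19% of all. Groups that did not overlap, with MS+EA lower, were found for 12.9% of all genes.

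In MS against Control rats the log2 fold change of Fezf2 was -0.22 (95% interval -0.49 to 0.05; edgeR adjusted p = 0.544). In MS+EA against MS rats it was -0.30 (95% interval -0.57 to -0.02; adjusted p = 0.366). These comparisons share rats with each other and with MS+EA against Control, so their values are given side by side and are not independent. Of all genes, 7.53% had every MS rat under every Control rat, as Fezf2 had by a margin of 29.2 against 29.3 CPM.

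The adjusted p of Fezf2 in MS+EA against Control rats was 0.00438 to 0.0499 under other normalizations, filters and tests. When single rats were omitted, the log2 fold change lay between -0.63 and -0.38 and the adjusted p between 0.0340 and 0.108. It was above 0.05 without A1 (0.0958), A2 (0.0844), A6 (0.108), C3 (0.0706) or C10 (0.0699). Without C16, the MS+EA rat with the highest Fezf2, the fold change passed 1.5-fold as well and Fezf2 was called.

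General markers of excitatory neurons were also lower in MS+EA than in Control rats, beside Fezf2. Of 8 such markers, 3 were lower at an adjusted p under 0.05 and 0 were higher. Slc17a7 had a log2 fold change of -0.30 (edgeR adjusted p = 0.0207), Camk2a, the calcium-dependent kinase of glutamatergic synapses, one of -0.36 (adjusted p = 0.0387), and Slc30a3, which loads zinc into synaptic vesicles, one of -0.49 (adjusted p = 0.0356). The summed level of the 8 genes was 4423 to 5236 CPM in Control, 4553 to 4676 CPM in MS and 3887 to 4055 CPM in MS+EA rats, with no overlap between MS+EA and the other groups. Its part in the Fezf2 result was examined only by a ratio, chosen after the values had been seen, to 7 of the 8 markers.

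Fezf2 per 1000 CPM of these markers was 5.80, 7.57 and 6.88 in Control rats, 5.90, 5.56 and 6.73 in MS rats, and 4.67, 5.89 and 6.85 in MS+EA rats. On this scale the groups overlapped, since C16 lay close to the middle Control rat and C10 just above the lowest. The log2 difference between MS+EA and Control rats was -0.23 (exact two-sided permutation p = 0.4, n = 3 per group). With 3 rats against 3 this test cannot give a p under 0.1. The ratio is a measurement relative to other genes, each of which may differ between the groups.

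**Figure D2:**
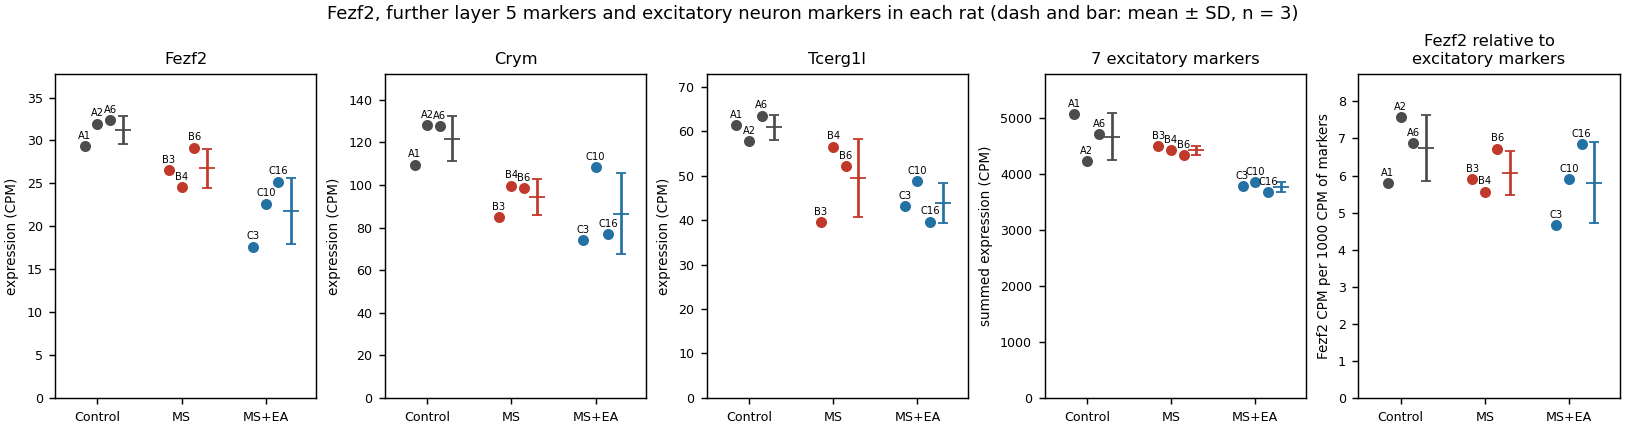
Level of Fezf2, Crym, Tcerg1l and the sum of 7 excitatory neuron markers (vertical axes, CPM), and Fezf2 per 1000 CPM of these markers, in each rat with the mean and SD per group. Fezf2 and the marker sum were under all Control rats in every MS+EA rat, whereas the ratio of MS+EA rat C16, 6.85, lay among the Control ratios.

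Bcl11b, the transcription factor downstream of Fezf2 that is also strongly expressed by striatal projection neurons, did not follow Fezf2. It was at 88.3, 79.6 and 82.3 CPM in Control rats, at 77.3, 66.7 and 88.3 CPM in MS rats, and at 89.0, 90.5 and 93.5 CPM in MS+EA rats. The MS+EA rats lay above every Control and every MS rat, by a narrow margin over A1 and B6. The log2 fold change was 0.23 in MS+EA against MS rats (95% interval 0.03 to 0.43; edgeR adjusted p = 0.334) and 0.13 in MS+EA against Control rats (95% interval -0.07 to 0.33; adjusted p = 0.455). Groups with MS+EA higher and no overlap made up 8.27% and 13.0% of all genes in these comparisons. In MS against Control rats the value was -0.11 (adjusted p = 0.722), and the rats overlapped.

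Relative to the 7 excitatory markers, Bcl11b was 17.5 to 18.9 per 1000 CPM in Control, 15.1 to 20.4 in MS and 23.6 to 25.4 in MS+EA rats. The log2 differences of MS+EA rats were 0.43 from Control and 0.47 from MS rats, each at the smallest exact permutation p the design allows, 0.1. Markers of striatal projection neurons are given beside it. The 9 of 11 such genes that passed the filter summed to 241 to 260 CPM in Control, 244 to 253 CPM in MS and 253 to 287 CPM in MS+EA rats, and 0 of the 9 passed an adjusted p of 0.05 in any comparison. Over the 9 rats, Bcl11b and this sum had a Pearson's r of 0.35 (exact permutation p = 0.321, adjusted p = 0.692 over 99 relations; Spearman's rho = 0.43, exact p = 0.250; r = 0.39 without A6 and C3). The part of these cells in the Bcl11b values was not tested further.

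Etv1, an ETS family transcription factor used to mark layer 5 pyramidal neurons, had a wide spread in the MS+EA rats. It was at 185, 199 and 190 CPM in Control rats, at 209, 194 and 208 CPM in MS rats, and at 172, 235 and 218 CPM in MS+EA rats. The MS+EA group held both the lowest and the 2 highest rats, and the groups overlapped in each comparison. Log2 fold changes were 0.09 in MS against Control, 0.03 in MS+EA against MS and 0.13 in MS+EA against Control rats, with edgeR adjusted p of 0.779, 0.917 and 0.478.

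Rbp4, the plasma carrier of retinol whose gene also drives a widely used layer 5 Cre line, was high in 3 rats of 2 groups. It was at 8.72, 9.76 and 7.77 CPM in Control rats, at 8.28, 31.5 and 9.86 CPM in MS rats, and at 15.2, 8.44 and 15.1 CPM in MS+EA rats. The 6 remaining rats lay close together across all 3 groups, at 7.77 to 9.86 CPM. The log2 fold change was 0.91 ± 0.41 (SE) in MS against Control (edgeR adjusted p = 0.461), -0.36 in MS+EA against MS (adjusted p = 0.757) and 0.56 in MS+EA against Control rats (adjusted p = 0.467). Rat B4 set the first 2 of these values. Without it they were 0.05 in MS against Control and 0.51 in MS+EA against MS rats, so that the latter changed sign.

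Markers of meningeal fibroblasts were high in the same rats as Rbp4. All 6 of these markers passed the filter, and their summed level, most of it from Ptgds, the prostaglandin D synthase of the meninges, was 74.5 to 141 CPM in Control, 147 to 1567 CPM in MS and 183 to 516 CPM in MS+EA rats. The 3 rats with the highest Rbp4 (B4, C3 and C16) were also the 3 highest for 5 of the 6 genes, and B4 was the highest for all 6. For choroid plexus markers, of which 4 of 6 passed the filter, the sum was 2.18 to 2.62 CPM in Control, 2.33 to 19.8 CPM in MS and 1.41 to 6.52 CPM in MS+EA rats, and B4 was again the highest for all 4, but B4, C3 and C16 were the 3 highest for only 1 of the 4. Ttr, the transthyretin gene that defines the choroid plexus, was at 9.13 CPM in B4 and at 0.469 to 2.22 CPM in the other rats.

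Over all 9 rats the correlations of Rbp4 with both lists were positive and passed the adjustment over 99 relations of layer markers with lists of other cells. Their coefficients are not given, since Rbp4 put the rats in separate clusters. Among the 6 rats with low Rbp4, its r with the meningeal sum was 0.39 (exact permutation p = 0.440; rho = 0.49, p = 0.356) and with the choroid plexus sum 0.67 (exact permutation p = 0.139; rho = 0.71, p = 0.136). The part of meningeal or choroid plexus RNA in the Rbp4 differences was not tested. In rats B4, C3 and C16 the level of Rbp4 is given as measured, without assigning it to a layer.

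Cux1, a homeodomain transcription factor of layer 2 to 4 neurons, overlapped between all groups. It was at 154, 115 and 124 CPM in Control rats, at 147, 154 and 135 CPM in MS rats, and at 156, 133 and 140 CPM in MS+EA rats. Control rat A1 was among the highest of all, and the other Control rats were the lowest. The log2 fold changes were 0.15 in MS against Control, -0.03 in MS+EA against MS and 0.12 in MS+EA against Control rats, with edgeR adjusted p of 0.639, 0.945 and 0.514. Per 1000 CPM of excitatory markers, Cux1 was higher in every MS+EA rat than in every Control rat, by 0.44 on the log2 scale, and also higher in every MS rat than in every Control rat, by 0.23 (exact permutation p = 0.1 for each).

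Cux2, the paralog of Cux1 that promotes dendritic branching and spines in the upper layers, was at 233, 178 and 210 CPM in Control rats, at 183, 206 and 190 CPM in MS rats, and at 182, 175 and 202 CPM in MS+EA rats. The groups overlapped, with A1 the highest of all rats. The log2 fold changes were -0.10 in MS against Control, -0.05 in MS+EA against MS and -0.15 in MS+EA against Control rats, with edgeR adjusted p of 0.760, 0.857 and 0.371.

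Rasgrf2, a calcium-responsive exchange factor for Ras, Lamp5, a membrane protein of the LAMP family that is also made by a class of interneurons, and Rorb, the nuclear receptor typical of layer 4, had their lowest levels in the same rats. Lamp5 was at 175, 146 and 148 CPM in Control rats, at 184, 175 and 170 CPM in MS rats, and at 129, 174 and 130 CPM in MS+EA rats. Rorb was at 9.05, 7.62 and 7.59 CPM in Control rats, at 8.81, 8.01 and 8.54 CPM in MS rats and at 6.45, 8.18 and 7.15 CPM in MS+EA rats. Rasgrf2 was at 66.0, 54.7 and 55.3 CPM in Control rats, at 56.0, 59.9 and 57.2 CPM in MS rats and at 49.7, 60.0 and 44.3 CPM in MS+EA rats. For each of these genes C3 and C16 were the 2 lowest rats, while C10, of the same group, was in the range of the MS rats or above it.

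C3, and by a narrow margin C16, also had the highest summed level of olfactory bulb neuron markers. Of 6 such markers 4 passed the filter, and their summed level was 67.1 CPM in C3 and 32.8 CPM in C16 against 11.9 to 29.0 CPM in the other rats. Most of it came from Cdhr1, a cadherin-related gene of mitral and tufted cells, at 57.0 CPM in C3, 24.5 CPM in C16 and less in every other rat. Tbx21, a transcription factor of the same cells that did not pass the filter, had 20 counts in C3, 4 in C16 and 0 to 2 in the others. The remaining genes of the sum, Doc2g, Sp8 and Th, were not high in both rats. Doc2g was highest of all rats in C3 but lowest in C16, at 2.94 CPM. Sp8 was also lowest in C16, at 1.83 CPM. Th was highest in C16, at 3.58 CPM, but in C3 it was at 1.46 CPM, under the Control rats (1.68 to 2.07 CPM). The layer 6 and subplate genes summed to 326 CPM in C3 and 322 CPM in C16, with Control rat A2 at 323 CPM and the others at 233 to 286 CPM. Over the 9 rats, Lamp5 and the olfactory bulb sum had r = -0.76 (exact permutation p = 0.0105, adjusted p = 0.207 over 99 relations; rho = -0.67), which was -0.40 without C3 and C16. For Rorb r was -0.67 (exact permutation p = 0.0493, adjusted p = 0.376; rho = -0.40) and 0.13 without these rats, and for Rasgrf2 it was -0.53 (exact permutation p = 0.142, adjusted p = 0.585; rho = -0.67) and also 0.13. Lamp5 and the layer 6 sum had r = -0.73 (exact permutation p = 0.0318, adjusted p = 0.344; rho = -0.67), which was -0.64 without B4 and C3. The part of these cells in the levels of Lamp5, Rorb and Rasgrf2 was not tested further.

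The groups overlapped for Lamp5, Rorb and Rasgrf2 in every comparison. For Lamp5 the log2 fold change was 0.18 in MS against Control, -0.29 in MS+EA against MS (95% interval -0.53 to -0.05) and -0.11 in MS+EA against Control rats, with edgeR adjusted p of 0.597, 0.322 and 0.582. For Rorb the values were 0.06, -0.22 and -0.16, with adjusted p of 0.919, 0.578 and 0.583. For Rasgrf2 they were -0.03, -0.17 and -0.19, with adjusted p of 0.960, 0.558 and 0.325. Relative to the excitatory markers, the MS rats were above all Control rats for Lamp5, by 0.25 on the log2 scale, and for Rorb, by 0.14, each at an exact permutation p of 0.1.

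**Figure D3:**
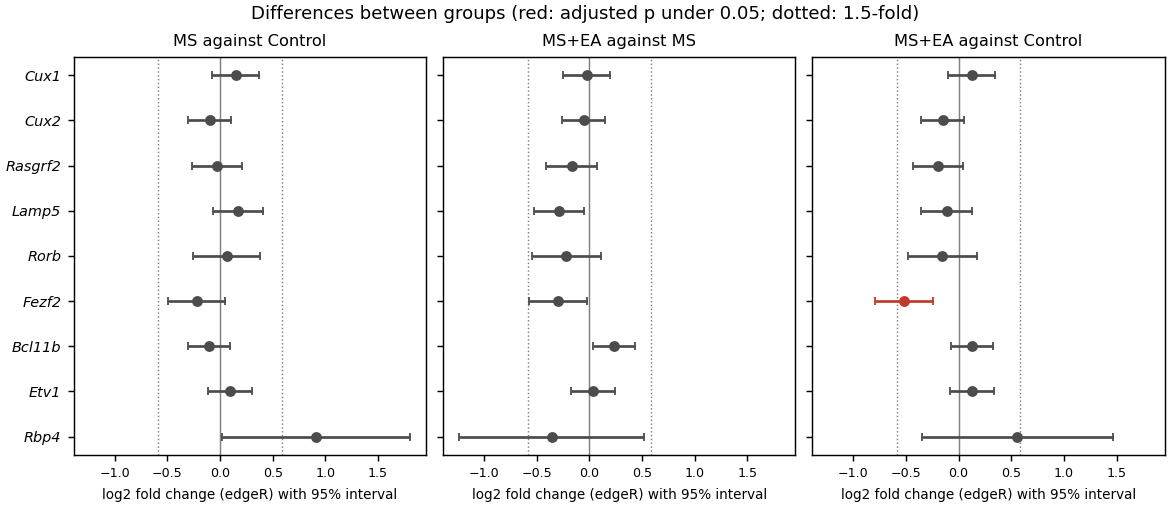
Log2 fold change of the 9 layer markers with its 95% interval (horizontal axes) in MS against Control, MS+EA against MS and MS+EA against Control rats, from edgeR. Fezf2 in MS+EA against Control rats, drawn in red at -0.52, was the one value with an adjusted p under 0.05, and Rbp4 had the widest intervals.

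The intervals bound the size of the differences. For the 8 markers other than Rbp4, the 95% intervals lay between -0.49 and 0.41 on the log2 scale in MS against Control rats and between -0.57 and 0.43 in MS+EA against MS rats, which is inside 1.5-fold in either direction. In MS+EA against Control rats this held for 7 of them, at -0.48 to 0.35, and not for Fezf2. The median log2 fold change of the 5 upper layer markers was 0.06, -0.17 and -0.15 in these comparisons in turn, and that of the 4 layer 5 markers was -0.01, -0.13 and 0.13, beside medians of all genes of -0.00, 0.00 and 0.01. The summed upper layer level divided by the summed layer 5 level was 1.56 to 2.04 in Control, 1.67 to 1.91 in MS and 1.49 to 1.78 in MS+EA rats, ranges that overlapped.

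Correlations over the 9 rats were computed on log2 CPM for all 36 pairs of the layer markers. Of these, 20 were positive and 16 negative, with a median r of 0.11. An unadjusted exact permutation p under 0.05 was found for 3 pairs, all among Rasgrf2, Lamp5 and Rorb, and an adjusted p under 0.05 for 1. Lamp5 and Rorb had r = 0.91 (exact permutation p = 4.5e-04, adjusted p = 0.0164) and rho = 0.83 (exact p = 0.00827, adjusted p = 0.194), and r was 0.81 without C3 and C16, the rats farthest from the median of Lamp5. Rasgrf2 and Lamp5 had r = 0.83 (exact permutation p = 0.00281, adjusted p = 0.0505) and rho = 0.77 (exact p = 0.0214, adjusted p = 0.257), and r was 0.85 without A1 and C16. Rasgrf2 and Rorb had r = 0.77 (exact permutation p = 0.0160, adjusted p = 0.192) and rho = 0.82 (adjusted p = 0.194), and r was 0.77 without A1 and C16.

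With each group centred on its own mean, r was 0.89 for Lamp5 and Rorb, 0.89 for Rasgrf2 and Lamp5, and 0.68 for Rasgrf2 and Rorb. Omitting any 1 rat left r of Lamp5 and Rorb at 0.89 to 0.94, with an adjusted p of 0.0259 to 0.130. The adjusted p was above 0.05 without A2, A6, B6, C3, C10 or C16, where 8 rats remained. Relative to excitatory markers r was 0.87 (adjusted p = 0.0822).

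**Figure D4:**
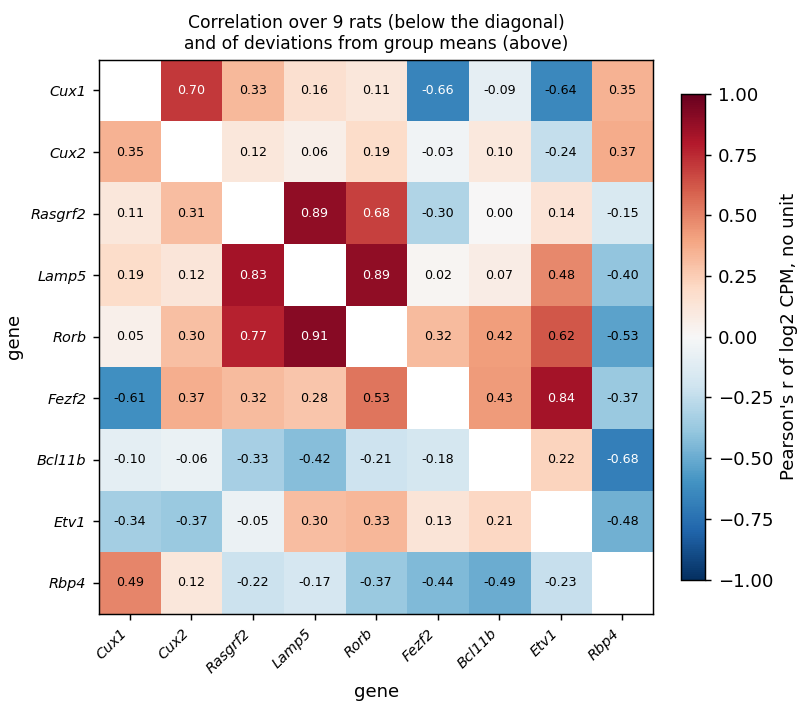
Pearson's r of log2 CPM for each pair of the 9 layer markers, over the 9 rats below the diagonal and for deviations from group means above it, on a color scale from -1 to 1. Rasgrf2, Lamp5 and Rorb form a block of 0.77 to 0.91 below the diagonal, and Cux1 with Fezf2 has the lowest value there, -0.61.

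All other pairs had lower coefficients over the 9 rats. Cux1 and Cux2 had r = 0.35 with each other, and neither had an r over 0.31 with Rasgrf2, Lamp5 or Rorb. Fezf2 and Bcl11b had r = -0.18, and Fezf2 and Etv1 had r = 0.13. The lowest of the 36 values was that of Cux1 with Fezf2, r = -0.61 (exact permutation p = 0.0782, adjusted p = 0.704; rho = -0.62), which was -0.27 without A2 and A6.

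The promoters of the 3 genes with the highest coefficients, of which Lamp5 and Rorb passed the adjustment as a pair, are shown for comparison, each as the 250 bases before the RefSeq start on GRCr8. They are Rasgrf2 (chr2:25096612-25096861, minus strand), Lamp5 (chr3:143824947-143825196, plus strand) and Rorb (chr1:225970974-225971223, minus strand). Capitals mark matches on either strand to the CCAAT box CCAAT, the GC box GGGCGG and the E-box CACGTG.
Rasgrf2: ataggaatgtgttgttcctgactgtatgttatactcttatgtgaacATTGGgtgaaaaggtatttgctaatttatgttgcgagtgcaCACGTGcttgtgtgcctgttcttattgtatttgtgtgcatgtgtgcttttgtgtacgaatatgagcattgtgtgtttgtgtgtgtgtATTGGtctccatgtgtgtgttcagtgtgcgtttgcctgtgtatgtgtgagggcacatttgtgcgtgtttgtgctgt
Lamp5: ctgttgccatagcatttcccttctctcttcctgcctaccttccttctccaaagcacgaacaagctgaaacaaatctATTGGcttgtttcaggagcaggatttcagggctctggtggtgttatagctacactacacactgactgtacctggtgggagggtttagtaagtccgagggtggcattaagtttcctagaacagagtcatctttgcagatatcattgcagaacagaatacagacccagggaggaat
Rorb: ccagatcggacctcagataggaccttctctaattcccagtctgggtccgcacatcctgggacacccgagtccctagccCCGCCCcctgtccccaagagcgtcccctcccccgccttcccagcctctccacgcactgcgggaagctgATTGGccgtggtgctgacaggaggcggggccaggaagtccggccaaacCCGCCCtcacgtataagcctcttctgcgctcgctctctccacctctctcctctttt

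Each of these windows held the CCAAT box on the minus strand, read as ATTGG. It started 204 and 76 bases before the start in Rasgrf2, 174 in Lamp5 and 104 in Rorb. Rasgrf2 also held the E-box, 163 bases before the start, and Rorb held GC boxes 172 and 56 bases before it. The CCAAT box was in 34.0% of the 33469 windows, the GC box in 30.5%, the E-box in 5.59%, the TATA box TATAAA in 12.9% and the cAMP response element TGACGTCA in 1.59%. RefSeq windows were matched for 8 of the 9 layer markers. The other 5 matched genes (Cux1, Cux2, Fezf2, Etv1 and Rbp4) held GC boxes and no CCAAT match, and Rbp4 alone of the 8 held a TATA box, 50 bases before its start. A match is a description of letters in these windows. The windows of Rasgrf2 and Lamp5 were 41.6% and 46.4% G or C, and that of Rorb 64.0%.

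Lists of other cell types were set beside each layer marker over the 9 rats, in 99 relations chosen after the group values had been seen. An unadjusted exact permutation p under 0.05 was found for 13 of them and an adjusted p under 0.05 for 3, of which 2 were those of Rbp4 with the meningeal and choroid plexus lists. Etv1 and the summed level of 6 microglial markers had r = -0.92 (exact permutation p = 5.5e-04, adjusted p = 0.0453), rho = -0.97 (exact p = 1.7e-04, adjusted p = 0.0164) and r = -0.82 without C10 and C16. The microglial sum was 223 to 251 CPM in Control, 208 to 233 CPM in MS and 186 to 238 CPM in MS+EA rats. C10 and C16, the 2 rats with the highest Etv1, had the lowest microglial sums, and 0 of the 6 markers passed an adjusted p of 0.05 in any comparison. Fezf2 and the excitatory markers had r = 0.68 (exact permutation p = 0.0382, adjusted p = 0.344; rho = 0.62), and r was 0.55 without C3 and C16. Fezf2 and the striatal markers had r = -0.85 (exact permutation p = 0.00789, adjusted p = 0.195; rho = -0.68), and r was -0.38 without A6 and C3, so that this value rested on those rats.

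**Figure D5:**
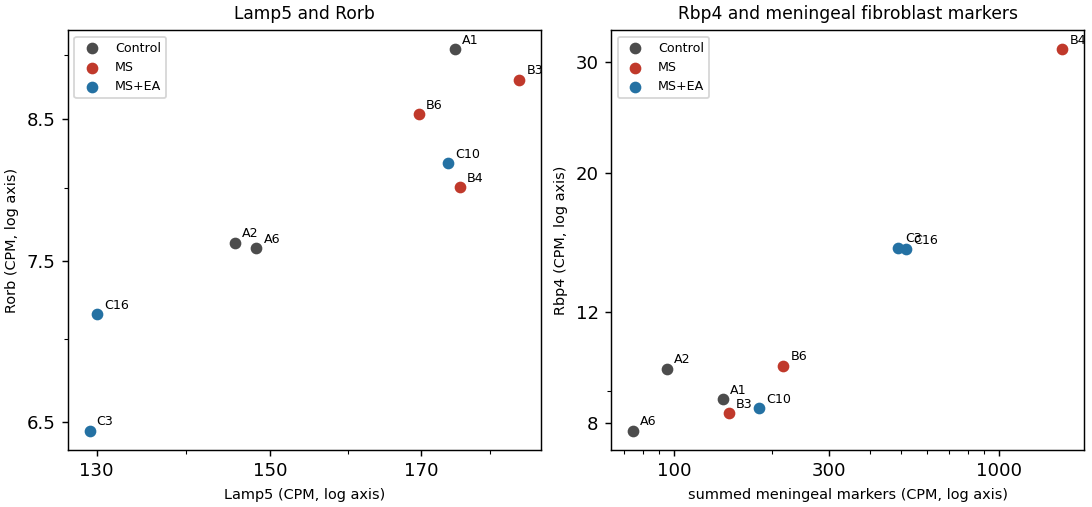
Left, Rorb against Lamp5 in each of the 9 rats, and right, Rbp4 against the summed level of 6 meningeal fibroblast markers (all axes CPM, log scale, colored by group). Rats C3 and C16 are lowest for Lamp5 and Rorb, and B4, at 31.5 CPM of Rbp4 and 1567 CPM of the meningeal markers, stands apart from the others.

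In the further upper layer genes no single gene passed the adjustment. Of 18 listed genes 16 were tested, and 0 passed an adjusted p of 0.05 in any comparison, with medians of the log2 fold change of 0.04, -0.05 and 0.01 in MS against Control, MS+EA against MS and MS+EA against Control rats. The value was positive for 12 of the 16 in the first of these, negative for 11 of the 16 in the second and positive for 9 of the 16 in the last. The smallest p was that of Wfs1, which encodes wolframin of the endoplasmic reticulum, in MS+EA against Control rats, with a log2 fold change of -0.39 (edgeR adjusted p = 0.0749). It was at 202 ± 9.22 CPM (SD, n = 3) in Control, 164 ± 25.3 CPM in MS and 154 ± 24.6 CPM in MS+EA rats. Kcnh5, a voltage-gated potassium channel, had 0.28 in MS against Control rats (adjusted p = 0.338), and Plcxd2, a phospholipase C-like gene, had 0.26 there (adjusted p = 0.393) and -0.25 in MS+EA against MS rats (adjusted p = 0.357). Cartpt, the precursor of the CART peptides, had few counts, with 18, 6 and 3 in Control rats, 6, 6 and 1 in MS rats and 56, 0 and 13 in MS+EA rats (adjusted p = 0.347 in MS+EA against MS and 0.338 in MS+EA against Control rats).

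Of the further layer 5 genes, 2 were lower in MS+EA than in Control rats at an adjusted p under 0.05. Of 18 listed genes 17 were tested, with medians of 0.09, -0.03 and -0.04 in the same comparisons, and 0 passed an adjusted p of 0.05 in the first 2 of them. In MS+EA against Control rats 2 passed, both lower and neither past 1.5-fold, where 2.19% of all genes passed in this direction. By sign alone, 9 of the 17 genes were lower and 8 higher in this comparison. Crym, the thyroid hormone-binding mu-crystallin, was at 110, 128 and 128 CPM in Control rats, at 84.8, 99.8 and 98.5 CPM in MS rats, and at 74.2, 108 and 77.1 CPM in MS+EA rats. Its log2 fold change in MS+EA against Control rats was -0.49 (edgeR adjusted p = 0.0459), with C10 just under the lowest Control rat. In MS against Control rats it was -0.37 (adjusted p = 0.302), also with no overlap. Groups without overlap and with Control higher made up 7.53% of all genes for MS and 12.9% for MS+EA rats.

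Tcerg1l, a transcription elongation regulator-like gene, was at 61.3, 57.8 and 63.5 CPM in Control rats, at 39.6, 56.5 and 52.1 CPM in MS rats, and at 43.2, 48.7 and 39.7 CPM in MS+EA rats. Every MS and MS+EA rat was under every Control rat. Of all genes, 7.53% had every MS rat and 12.9% every MS+EA rat under every Control rat. The log2 fold change was -0.47 in MS+EA against Control rats (edgeR adjusted p = 0.0423) and -0.30 in MS against Control rats (adjusted p = 0.389). The other layer 5 genes with the smallest p did not pass the adjustment. Trib2, a pseudokinase, and Deptor, an inhibitor of mTOR, had 0.37 and 0.25 in MS against Control rats (adjusted p = 0.186 and 0.206). Adcyap1, which encodes the neuropeptide PACAP, and Parm1, a mucin-like membrane protein, had -0.40 and -0.54 in MS+EA against MS rats (adjusted p = 0.226 and 0.236).

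Layer 6 and subplate genes, next to layer 5 in depth, had medians of -0.57 in MS against Control, 0.46 in MS+EA against MS and 0.19 in MS+EA against Control rats over 11 genes, of which 0 passed an adjusted p of 0.05. In MS against Control rats 10 of the 11 had negative values, and in MS+EA against MS rats all 11 had positive ones. Their sum was 261 to 323 CPM in Control, 233 to 268 CPM in MS and 286 to 326 CPM in MS+EA rats. The layer a sample was richer in was not measured apart from these genes, and their part in the values of the layer 5 markers was not tested.

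The remaining lists of other cells held 0 genes past an adjusted p of 0.05 in any comparison. In MS+EA against Control rats their median log2 fold change was 0.00 for 11 inhibitory neuron genes, -0.05 for 8 astrocyte genes, 0.15 for 8 oligodendrocyte genes, -0.20 for the 6 microglial genes, 0.05 for 6 endothelial genes, 0.06 for the 9 striatal genes and 0.16 for 4 olfactory bulb genes. It was 1.37 for the 6 meningeal genes and 1.65 for the 4 choroid plexus genes, whose values in MS against Control rats were 2.16 and 2.28.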

How the data were processed

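Total RNA was sequenced on an Illumina HiSeq X, and the authors deposited whole-number counts of reads per gene without normalization. The submitters' processing notes name HISAT2 2.0.4 and the genome build Rnor_6.0. The counting program, its strand setting and the treatment of multi-mapping reads are not given in the sources used here, so reads shared by overlapping or near-identical genes may be placed on either. Columns were matched to rats by the names in the labels. The members and gene lists were chosen with earlier results of these data known.

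Counts were analysed with edgeR 4.0.16 in R 4.3.3: filterByExpr (minimum count 10), TMM, 1 mean per group over all 9 rats and quasi-likelihood F tests. The common biological coefficient of variation was 12.7%. The p-values of group comparisons rest on the spread of rats within groups, estimated over all 9 rats together, with 3 rats per group. log2 CPM used a prior count of 2. Correlations were tested over all pairings of the rats, with Benjamini-Hochberg adjustment. The study's own test, EBSeq, was not run. Alternatives were DESeq2 1.42.0, limma-trend (limma 3.58.1), RLE or total counts for scaling, at least 10 counts in every rat or at least 1 count over all rats as filter, the 6 rats compared alone, adjusted p alone, and the omission of each rat. Ratios to excitatory markers were named as an alternative for the correlations at the outset, while their group values and the correlations with lists were added after the data had been seen. The edgeR procedure was tested on simulated counts. Tables and plots used Python 3.11.15 with numpy 2.4.6, pandas 2.3.3, scipy 1.17.1 and matplotlib 3.10.9.

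Beside the 9 markers, the text names genes of the other upper layer and layer 5 lists that were called or had up to 5 of the smallest unadjusted p under 0.05, the most abundant genes of other lists as examples, and the 3 genes most like each marker, some of which are not reported here. Drd1, Ttr, Isl1, Six3 and Tbx21 are named as defining markers, and Slc17a7, Camk2a and Slc30a3 since they passed the adjustment, chosen after their values were seen. Doc2g, Sp8 and Th are named as the other olfactory bulb genes past the filter. Promoter letters are from RefSeq (GRCr8), and no coordinates were converted between builds. No paired analysis was possible because each rat belonged to 1 group and a shared number in the names (such as A6 and B6) marks no stated link.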

Additional observations from a re-analysis of the deposited data

How the results depend on the processing

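The number of layer markers called in MS+EA against Control rats, 0, became 1 (Fezf2) with the adjusted p alone and without C16, and was 0 to 1 when single rats were omitted. In MS against Control and in MS+EA against MS rats it was 0 under every alternative run. The number of correlated pairs, 1, was 0 with Spearman's rho, 2 after centring on group means and 0 relative to excitatory markers, and 0 to 2 when single rats were omitted. Signs turned for values near 0 and for Rbp4. For Cux1 in MS+EA against MS rats the log2 fold change became 0.018 with total counts alone, and it was -0.086 to 0.027 when single rats were omitted, turning without B4 and without C10 (0.024). In the same comparison and under the same omissions it was -0.12 to 0.0011 for Cux2 and -0.68 to 0.51 for Rbp4, both turning without B4, and -0.062 to 0.16 for Etv1, turning without C10 and without C16 (-0.0014). For Rasgrf2 in MS against Control rats it was -0.079 to 0.068, turning without A1. Of 498 values of single genes or pairs under an alternative, 478 kept their direction and their side of the threshold, 8 turned, 8 lost the threshold and 4 gained it. Over all genes, the calls in MS against Control rats numbered 4, but 207 with a filter of at least 1 count and 70 with DESeq2. In MS+EA against MS rats they numbered 3, but 72 and 37 with these settings, and in MS+EA against Control rats 230, but 469 with the filter of at least 1 count and 71 without A1. The cause was not tested. With 3 rats per group, differences of the size of the intervals given could not be resolved, and the MS+EA libraries were the smallest. Rorb, with 90 to 169 counts per rat, and Rbp4, with 125 to 503, were the markers with the fewest counts.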

Other observations

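The genes whose level followed each layer marker most closely over the 9 rats were sought among 12608 genes with a mean of at least 1 CPM, by Pearson's r of log2 CPM. With so many genes and 9 rats, high values arise for any gene, so they are a description without a test. For Fezf2 the highest were Nub1 (r = 0.97), Syt11 (0.96) and Slc35b1 (0.96), and for Bcl11b they were Larp1 (0.93), Prpsap2 (0.91) and Mettl14 (0.91). For Etv1 they were Tigd3, Dkk3 and Vps41, each at 0.94. For Rbp4 they were Clec2g (0.97), Ppp1r1a (0.97) and Zic1 (0.96), a gene that is also a marker of the meninges, with rat B4 far from the others.

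Among the upper layer markers, Cux1 was followed most closely by Stap2 (0.95), Adamts5 (0.91) and Fam198a (0.91), and Cux2 by Tomm6 (0.95), Ncdn (0.94) and Fam213a (0.92). Rasgrf2 was followed by Ramp1 (0.97) and Sowaha (0.93), Lamp5 by Lrrc57 (0.95) and Wdr16 (0.93), and Rorb by Camk1d (0.95), Coasy (0.95) and Tuft1 (0.94).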
